A study of Arabidopsis thaliana with 12 samples.

Results

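Photosystem I is the thylakoid complex that takes electrons from plastocyanin on the lumenal side of the membrane and passes them to ferredoxin on the stromal side. PSAN (AT5G64040) encodes PSI-N, its only subunit that lies wholly in the lumen, which takes part in the docking of plastocyanin. AT1G22700 encodes a tetratricopeptide repeat protein of the chloroplast that is needed for the assembly of photosystem I and is not part of the finished complex. PSI-K, the subunit that the psak mutant lacks, is a membrane protein on the side of photosystem I where light-harvesting antenna proteins bind. One gene described here thus encodes a subunit of the complex and the other a factor used while the complex is built.

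The 2 genes were followed through the probes that list each of them as their only gene: 1 probe for PSAN and 1 for AT1G22700, of 3439 on the array. Neither gene appears on any of the 870 probes that list several genes. Total RNA came from 6 samples of the Arabidopsis psak mutant and 6 wild-type samples (WT), all of ecotype Columbia 0, numbered 1 to 6 in each genotype. Neither growth conditions nor tissue nor plant age is given in the sources used here. The labels do not say whether the 6 samples were separate plants, so the spread between them, and the p-values that rest on it, may be partly technical. Nor do they say whether neighbouring numbers are repeats of 1 RNA, which would leave 3 replicates per genotype in place of 6. The question of the comparison is which transcripts differ in level when PSI-K is missing.

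The values are intensities on a linear scale, with the brightest probe of a sample at 98.8 to 100. They can be compared between samples for 1 probe as far as the scaling of the samples allows, which is not known here, and not between probes. Summed intensity was 2967 to 3460 per sample. The median log2 intensity of probes above 0 was -2.15 and -2.20 in psak samples 5 and 6, against -1.66 to -1.25 in the other 10. Samples numbered 1 and 2, 3 and 4, and 5 and 6 were alike within a genotype, with a consensus correlation of 0.590 over all probes, and are called number pairs here. The psak samples 5 and 6 had 18.1% and 19.4% of their probes at 0, against 13.0% to 16.5% in the other 10 samples. PSAK had no named probe of its own here, with 1877 of the 3439 probes unnamed. The level of the mutated gene therefore gave no check of the genotypes.

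PSAN was higher in every psak sample than in any WT sample. Its intensity was 9.77, 8.89, 5.82, 6.42, 5.93 and 4.29 in psak samples 1 to 6. In WT samples 1 to 6 it was 3.60, 3.61, 3.46, 3.35, 1.85 and 1.93. The groups did not overlap: the lowest psak value, in sample 6, was above the highest WT value, in sample 2. Of the 2358 probes above 0 in all samples, 3.82% had all psak samples above all WT samples. PSAN averaged 6.85 ± 2.07 in psak and 2.97 ± 0.841 in WT (SD, n = 6 each), a ratio of 2.31. After quantile normalization the log2 fold change, psak minus WT, was 1.43 ± 0.25 (SE), with a 95% interval of 0.88 to 1.99 and a limma adjusted p of 0.00366.

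AT1G22700 stood on the other side of its WT level. Its intensity was 0.612, 0.637, 0.460, 0.453, 0.556 and 0.429 in psak samples 1 to 6. In WT samples 1 to 6 it was 1.12, 0.801, 0.626, 0.675, 1.26 and 1.15. The groups overlapped by 1 sample, since psak sample 2 lay just above WT sample 3. AT1G22700 averaged 0.524 ± 0.0892 in psak and 0.941 ± 0.273 in WT (SD, n = 6 each), a ratio of 0.557. The log2 fold change was -0.66 ± 0.19 (SE), with a 95% interval of -1.07 to -0.25 and a limma adjusted p of 0.0358. In RNA from whole samples, a change in RNA per cell and a change in the share of cells that express a gene cannot be told apart, for either gene.

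In the same test 8.12% of 2993 probes were higher in psak and 6.72% were lower, at an adjusted p under 0.05. Ordered by p among the 595 tested probes that list 1 gene, PSAN ranked 11 and AT1G22700 ranked 60, and 80 of these probes passed. PSAN thus lay well inside the called probes, and AT1G22700 was nearer to the threshold. The fits that allow for number pairs differed in their calls. With number pairs shared by both genotypes as a fixed block, both genes passed (limma adjusted p = 6.8e-05 for PSAN and 0.0036 for AT1G22700). In that fit, which still takes 6 samples per genotype as replicates, 309 of 2984 probes were higher and 346 lower. With number pairs within each genotype as a random block, 3.31% of the probes were higher and 1.84% lower. PSAN passed in that fit (limma adjusted p = 0.0142) and AT1G22700 did not (limma adjusted p = 0.142). With the mean of each number pair as 1 replicate, 3 psak against 3 WT, neither passed (limma adjusted p = 0.187 and 0.330), and no probe of 2965 did, with 465 at an unadjusted p under 0.05. PSAN also missed the threshold without samples 3 and 4 of both genotypes (limma adjusted p = 0.0582). For AT1G22700 the call was lost without any 1 of psak samples 1 to 4 or WT samples 1, 5 and 6 (limma adjusted p = 0.0566 to 0.0805), and with samples centred on their medians or 75th percentiles (0.0822 and 0.0605). Without psak samples 5 and 6, which had the most probes at 0, the log2 fold change was 1.66 for PSAN and -0.73 for AT1G22700 (limma adjusted p = 0.00100 and 0.0174).

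**Figure D1:**
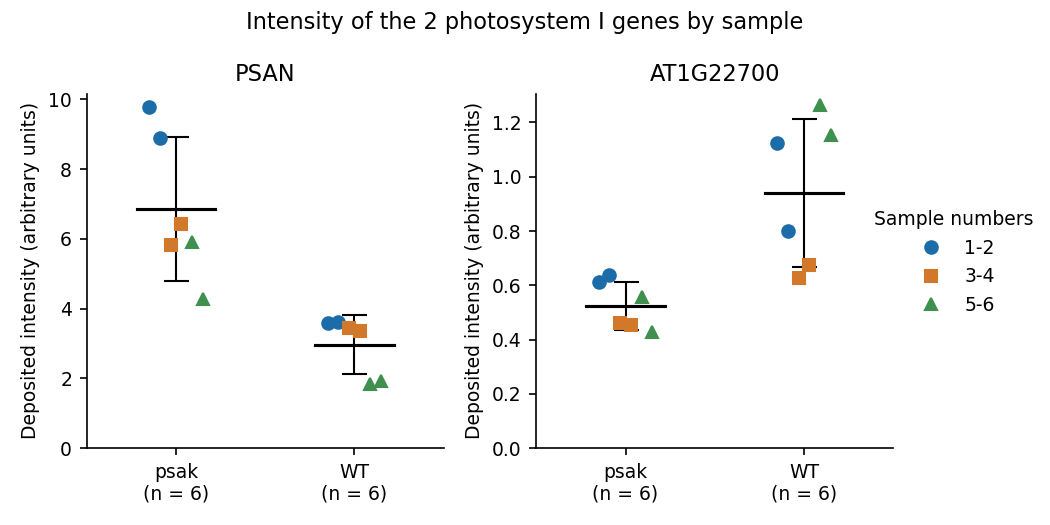
Deposited intensity (arbitrary units, linear axis from 0) of PSAN on the left and AT1G22700 on the right, with 1 point per sample, marked by number pair; horizontal lines are group means and bars ± 1 SD (n = 6). All psak points of PSAN lie above all WT points, while for AT1G22700 the psak points run from 0.429 to 0.637 and the WT points from 0.626 to 1.26.

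The number pairs show how each gene varied within a genotype. In psak, PSAN was highest in samples 1 and 2, with means of 9.33 in numbers 1-2, 6.12 in 3-4 and 5.11 in 5-6. In WT the means were 3.61, 3.41 and 1.89 in the same order, so that samples 5 and 6 stood low and the other 4 were nearly equal. The 2 WT samples of a number pair differed by at most 0.06 on the log2 scale, against a range of 0.93 between pair means. In psak the largest such gap was 0.47, in samples 5 and 6, against a range of 0.89. Most of the spread of PSAN in WT was therefore between number pairs.

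For AT1G22700 the order of the pairs was another one in WT. The WT means were 0.962 in numbers 1-2, 0.651 in 3-4 and 1.21 in 5-6, so WT samples 5 and 6 were the highest for AT1G22700 and the lowest for PSAN. In psak the means were 0.624, 0.457 and 0.492, and numbers 1-2 were the highest for both genes. Within a number pair, AT1G22700 differed by up to 0.49 in WT and 0.37 in psak on the log2 scale, against ranges between pair means of 0.89 in WT and 0.45 in psak.

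The direction of both genes was the same in all 3 number pairs, which for the deposited values of PSAN follows from its groups not overlapping. The ratio of the deposited pair means, psak over WT, was 2.59 in numbers 1-2, 1.80 in 3-4 and 2.70 in 5-6 for PSAN. For AT1G22700 it was 0.649, 0.702 and 0.407. On quantile-normalized values the log2 fold changes of AT1G22700 were -0.62, -0.63 and -0.73. On the log2 values as deposited they were -0.60, -0.51 and -1.31, so the normalization brought the 3 pairs closer together for this gene. For PSAN the log2 fold changes of the deposited values were 1.37, 0.84 and 1.42. A limma test of whether the psak minus WT difference varied between number pairs called 23.1% of 2757 probes, and neither PSAN (adjusted p = 0.278) nor AT1G22700 (adjusted p = 0.924) was among them. With samples centred on their medians instead, PSAN passed this limma test (adjusted p = 0.00202). The 2 samples of a number pair are the replicates of this test.

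Taken by sample number, PSAN was 1.68 to 3.21 times as bright in the psak sample as in the WT sample of the same number. AT1G22700 was 0.371 to 0.795 times as bright. Both directions held for all 6 numbers, which for PSAN follows from its groups not overlapping.

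As a measure that does not depend on how bright a sample is as a whole, each of the 2 probes was also placed among the 2358 probes above 0 in all samples. PSAN lay at the 95.9th to 98.0th percentile in psak and at the 89.6th to 94.5th in WT. AT1G22700 lay at the 47.6th to 70.7th percentile in psak and at the 66.6th to 82.2nd in WT. With PSAN already near the top of the scale in WT, percentile points do not compare the sizes of the 2 changes. The difference of means, psak minus WT, was 4.23 percentile points for PSAN and -15.8 for AT1G22700 (exact two-sided permutation p = 0.00216 and 0.00649; adjusted over all 2358 probes, 0.0186 and 0.0400). The first of these p-values is the smallest that 6 against 6 samples allow, and both take the 12 samples as independent.

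The 2 genes were set against each other within each sample, as the ratio of PSAN to AT1G22700 intensity. Since the probes differ, the ratio itself says nothing of which transcript was more abundant, and only its change between samples can be read. It was 16.0, 14.0, 12.6, 14.2, 10.7 and 10.0 in psak samples 1 to 6. In WT samples 1 to 6 it was 3.21, 4.51, 5.52, 4.97, 1.46 and 1.67. The groups lay apart, and the spread was wider in WT, where samples 5 and 6 were the lowest. That they lay apart follows from the ranges of the 2 genes, however samples are combined within a genotype. The exact p of this ratio is therefore fixed by the values already given and adds no evidence. On the log2 scale the ratio averaged 3.67 ± 0.26 in psak and 1.65 ± 0.83 in WT (SD, n = 6 each), a difference of 2.02 or 4.05-fold (exact two-sided permutation p = 0.00216, the smallest that 924 arrangements allow). It was 1.97 in numbers 1-2, 1.35 in 3-4 and 2.72 in 5-6 on the log2 scale. Without psak samples 5 and 6 it was 2.17 (exact permutation p = 0.00476, again the smallest possible, since the groups lay apart). With means of number pairs the exact test gave p = 0.1, the smallest that 3 against 3 values allow. Of the 113050 ratios between single-gene probes above 0 in all samples, 5.86% did not overlap between the genotypes.

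**Figure D2:**
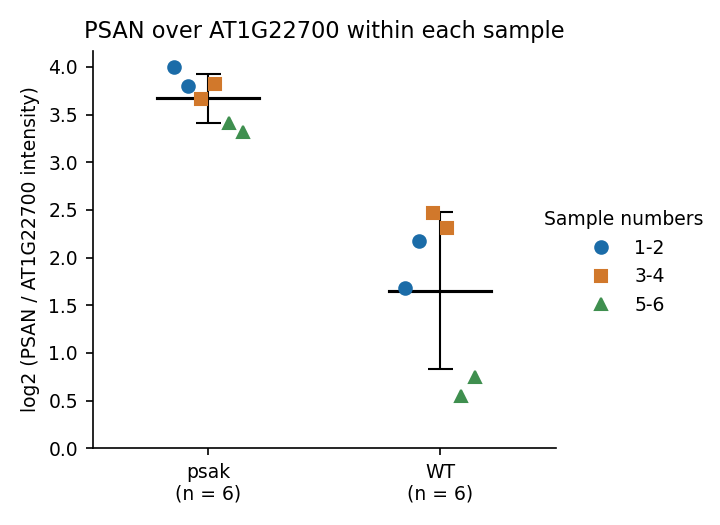
Log2 ratio of PSAN to AT1G22700 intensity within each sample (vertical axis), psak on the left and WT on the right, with 1 point per sample marked by number pair; lines are means and bars ± 1 SD (n = 6). The psak samples lie between 3.32 and 4.0 and the WT samples between 0.55 and 2.46, and numbers 5-6 are the lowest in both genotypes.

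PSAN was also set against each of the other 475 single-gene probes above 0 in all samples. The ratio of PSAN to the other probe was higher in every psak sample than in any WT sample for 193 of them, or 40.6%, and lower in every psak sample for none. The mean log2 ratio was higher in psak for 464 and lower for 11. The ratio of AT1G22700 to the other probe was lower in every psak sample for 42, or 8.84%, and higher for none. Its mean log2 ratio was lower in psak for 428 and higher for 47. These counts describe the position of both genes on the array and are not independent tests, since each rests on the same 12 values of PSAN or AT1G22700.

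Little else of photosystem I could be read. Of 33 loci drawn up for its subunits, its antenna, its assembly factors and its electron carriers, PSAN and AT1G22700 were the only ones with a single-gene probe. No probe with several genes listed any of the 33, and whether any of the 1877 unnamed probes belongs to them was not known. Among genes of the other thylakoid complexes, 7 more were tested, of which 2 rose, 2 fell and 3 did not pass, where 8.12% of all tested probes were higher and 6.72% lower. With number pairs as a random block the 2 that rose still passed (adjusted p = 0.0238 for LHB1B2 and 0.0375 for AT5G59400 with limma), and the 2 that fell did not (0.135 for NdhS and 0.107 for AT1G76450). The median log2 fold change of all 7 was -0.51, against -0.00261 over all tested probes.

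The 2 that rose were LHB1B2, an antenna protein of photosystem II, and AT5G59400, which was placed on the list for cyclic electron flow. LHB1B2 had a median of 30.0 (22.5 to 44.4) in psak and 11.7 (8.13 to 16.8) in WT, and its log2 fold change was 0.997 (adjusted p = 0.00497 with limma). It belongs to a family of very similar genes, and whether its probe tells them apart was not tested. AT5G59400 had a median of 0.411 (0.215 to 0.620) in psak and 0.224 (0.167 to 0.311) in WT, and its log2 fold change was 0.82 (adjusted p = 0.00556 with limma). On the deposited values AT5G59400 did not pass (adjusted p = 0.117 with limma) and was lower in psak within numbers 5-6 by 0.40 on the log2 scale, unlike PSAN. The 2 that fell were NdhS, which belongs to the NADH dehydrogenase-like complex of chloroplasts, and AT1G76450, a PsbP-domain protein. They stood at -0.52 and -0.82 on the log2 scale (adjusted p = 0.0364 and 0.0455 with limma), and on the deposited values AT1G76450 did not pass (adjusted p = 0.0536 with limma).

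PSBY, PSBW and PSB27, which encode a small subunit, another small subunit and an assembly protein of photosystem II, did not pass, with 0.38, -0.51 and -0.53 on the log2 scale (adjusted p = 0.209, 0.107 and 0.655 with limma). The probe of NdhN, another subunit of the NADH dehydrogenase-like complex, could not be tested: it was at 0 in 3 psak and 6 WT samples.

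**Figure D3:**
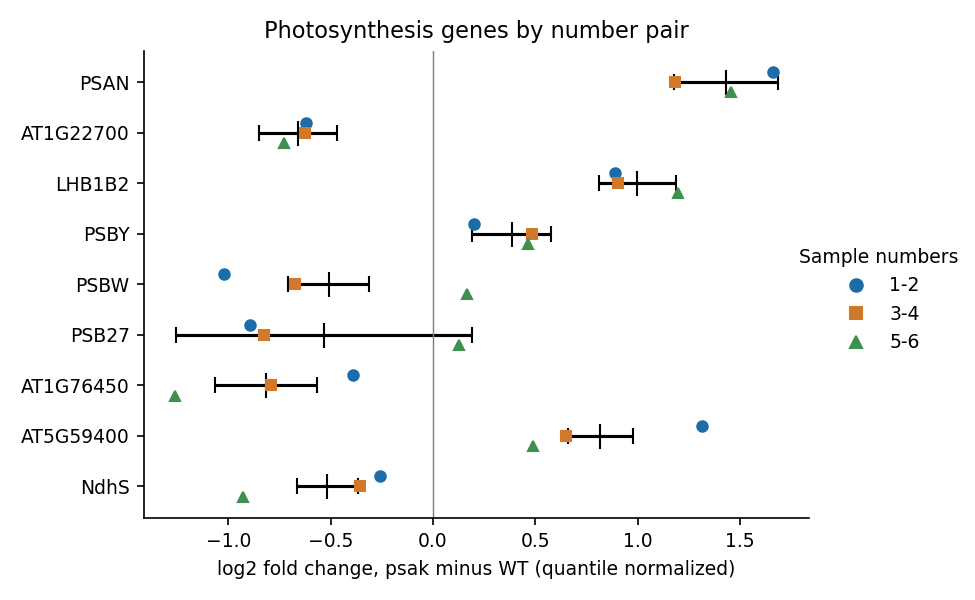
Log2 fold change, psak minus WT on quantile-normalized values, of the 9 tested photosynthesis genes (horizontal axis); the vertical tick with bars is the estimate over 12 samples ± 1 SE, and the symbols are the values within numbers 1-2, 3-4 and 5-6. PSAN has the highest estimate, 1.43, with its pairs at 1.66, 1.18 and 1.46, and AT1G22700 lies below 0 in all 3 pairs.

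Ratios within a sample show which of these genes PSAN differed from. The change of its ratio was tested against the 8 other genes, AT1G22700 included, with exact two-sided permutation p-values adjusted over the 8. It was higher in psak over 6 of them, by 2.02 on the log2 scale over AT1G22700, 1.83 over NdhS, 1.84 over AT1G76450, 1.71 over PSBW and 1.19 over PSBY (adjusted p = 0.00346 each, from exact permutation), and by 1.88 over PSB27 (adjusted p = 0.0404). In the first 5 of these the genotypes did not overlap, as was so for 40.6% of all 475 other single-gene probes set under PSAN. Over AT1G22700, NdhS and AT1G76450 this follows from the range of each gene in each genotype, so those p-values add no evidence. The mean log2 ratio was higher in psak over 464 of those 475, so such a rise was not particular to photosynthesis genes. The ratio of PSAN to LHB1B2 differed by -0.17 on the log2 scale (adjusted p = 0.377, exact permutation), with 0.07, -0.14 and -0.43 in the 3 number pairs. A rise of PSAN beyond that of LHB1B2 was thus not found in the deposited values. On quantile-normalized values the same ratio differed by 0.43 (adjusted p = 0.0346, exact permutation), so its direction depends on the normalization. PSAN over AT5G59400 differed by 0.50 (adjusted p = 0.270, exact permutation), with -0.29, -0.03 and 1.81 in the number pairs, and by 0.62 on quantile-normalized values (adjusted p = 0.0346, exact permutation).

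AT1G22700 was tested against the same genes in the same way, with PSAN as the eighth. Its ratio was lower in psak over 4 of the 8, with log2 differences of -2.02 over PSAN, -2.19 over LHB1B2 and -1.52 over AT5G59400 (adjusted p = 0.00577 each, exact permutation), and of -0.83 over PSBY (adjusted p = 0.0130). The exact p over PSAN and over LHB1B2 is fixed by the range of each gene in each genotype and adds no evidence. The mean log2 ratio of AT1G22700 was also lower in psak over 428 of all 475 other single-gene probes. Over NdhS, AT1G76450, PSB27 and PSBW it differed by -0.18, -0.18, -0.14 and -0.31 (adjusted p = 0.416 to 0.838, exact permutation). For these 4 the sign was not the same in all number pairs, and over AT1G76450 the difference was 0.16 on quantile-normalized values. In numbers 5-6 each ratio was below 0, at -0.70 over NdhS, -0.97 over AT1G76450, -1.06 over PSB27 and -1.69 over PSBW. On quantile-normalized values the ratios in numbers 5-6 were 0.20 over NdhS and 0.53 over AT1G76450, so for these 2 genes the direction there turned with the normalization. A fall of AT1G22700 beyond those of NdhS and AT1G76450 was thus not found. When same-numbered samples were paired, none of the 8 ratios of AT1G22700 passed (lowest adjusted p = 0.0625, exact sign-flip test), and no unadjusted p under 0.0312 can be reached with 6 pairs. The 4 ratios that passed before all stood at that smallest p and failed after adjustment over the 8. With the same pairing 6 of the 8 ratios of PSAN passed (adjusted p = 0.0417, exact sign-flip test), each at that same smallest p. The unlike outcome follows only from how many of the 8 ratios stood at it. The ratio of the 2 genes to each other is in both sets, and so counts as passed in one and failed in the other.

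The single-gene probes most like each gene were taken as the 5 with the highest Pearson r of normalized log2 intensity over the 12 samples, among 475. The genotype difference enters r, so r is given as a description and also with the genotype means subtracted. For PSAN these were PRA1.B6, which encodes a prenylated Rab acceptor of membrane traffic (r = 0.971, and 0.950 with genotype means subtracted), AT1G32730 (0.963 and 0.837), AT3G06570 (0.957 and 0.829), AT3G47650, a chloroplast protein with a DnaJ-type zinc finger (0.951 and 0.782), and AT5G53920 (0.950 and 0.888). All 5 passed the test and were higher in psak, at log2 fold changes of 0.75 to 1.53, where 8.12% of all tested probes were higher. The choice by r favours probes that differ between the genotypes as PSAN does, so these calls are no separate support. The probe of PRA1.B6, the nearest, averaged 9.0 ± 3.63 in psak and 3.61 ± 1.63 in WT (SD, n = 6 each). With the genotype means subtracted, 2 of these 5 remained among the 5 most like PSAN.

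For AT1G22700 the 5 were AT4G04370 (r = 0.936, and 0.909 with genotype means subtracted), AT4G18180 (0.924 and 0.834), AT2G46220 (0.923 and 0.807), AT1G73430 (0.905 and 0.757) and AT4G23080 (0.900 and 0.759). All had a log2 fold change below 0, from -1.17 for AT2G46220 to -0.41 for AT4G04370. The last did not pass (limma adjusted p = 0.148), and the others did, where 6.72% of all tested probes were lower. The choice by r favours such calls here as well. AT2G46220 averaged 5.16 ± 1.38 in psak and 11.7 ± 2.85 in WT (SD, n = 6 each). With the genotype means subtracted, 3 of the 5 remained. The samples of a number pair are alike, so the 12 points behind each r are not independent.

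**Figure D4:**
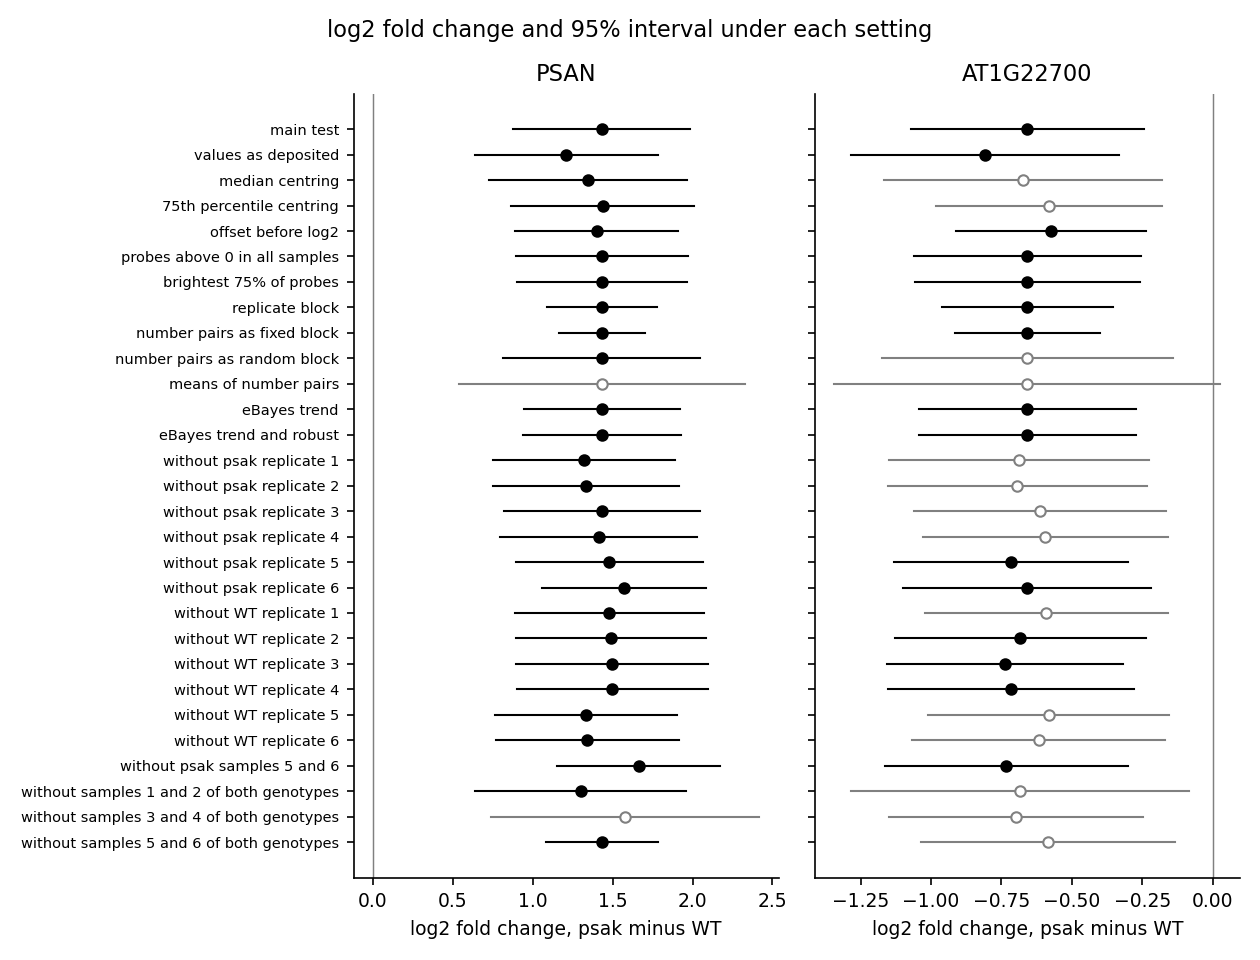
Log2 fold change, psak minus WT, of PSAN (left) and AT1G22700 (right) with its 95% limma interval, 1 row per setting of the test; filled black points have an adjusted p under 0.05 and open grey points do not. Every PSAN interval lies above 0, whereas AT1G22700 keeps its direction and lies on either side of the adjusted threshold depending on the setting.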

How the data were processed

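The authors deposited linear intensities, 1 for each probe in each sample. The sources used here do not give how the arrays were scanned, corrected for background and scaled, or what an intensity of 0 stood for. Probe names come from the table of the platform, and symbols from the RefSeq annotation of TAIR10.1: 692 list 1 gene (690 matched a locus), 870 several, and 1877 are unnamed here. No build is named for the array, so no coordinates are given, and probe sequences were not used here.

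Zeros were treated as missing, values were taken to log2 and quantile normalized, and probes with at least 2 values per genotype entered a two-sided test with limma 3.58.1 under R 4.3.3 (psak minus WT, adjusted by Benjamini-Hochberg over all 2993 tested probes, threshold 0.05). Ratios used deposited intensities and exact permutation tests in Python 3.11.15, and figures matplotlib 3.10.9. Scripts were tested on simulated data. Precision is limited by 6 samples per genotype, or 3 if number pairs are repeats of 1 RNA, which the labels do not say. Named genes are PSAN, AT1G22700, the probes of 9 photosynthesis lists (94 loci), and the 5 probes most like each gene. The members and lists were chosen with earlier results of these data known, so their tests are not independent evidence. Alternatives covered normalization, zeros, dim probes, blocks, variance and left-out samples.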

Additional observations from a re-analysis of the deposited data

Results flagged for a closer look

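A sample far from the other 5 of its genotype was sought in 42 groups of 6 values, those of the named probes and of the ratio of PSAN to AT1G22700. In none did the gap to the nearest sample, divided by the whole range, exceed Dixon's critical value for 6 samples. The search can miss a number pair that lies apart from the rest, since each of its samples has the other close by. For PSAN, WT samples 5 and 6 (1.85 and 1.93) lay below the other WT samples (3.35 to 3.61) and were not flagged. The lack of flags therefore does not show that no number pair stood apart.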

How the results depend on the processing

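PSAN was higher in psak under all 30 alternatives and past the threshold in 28. The exceptions were means of number pairs (log2 fold change 1.43, limma adjusted p = 0.187) and the fit without samples 3 and 4 of both genotypes (1.58, 0.0582). With 1 sample left out it ranged from 1.32 to 1.57 (adjusted p = 0.00175 to 0.0099). AT1G22700 was lower under all 30 and past the threshold in 16. It did not pass with median centring (-0.67, limma adjusted p = 0.0822), 75th percentile centring (-0.58, 0.0605), number pairs as a random block (-0.66, 0.142), means of number pairs (-0.66, 0.330), or without samples 1 and 2 (-0.68, 0.160), 3 and 4 (-0.70, 0.0915) or 5 and 6 (-0.58, 0.0598) of both genotypes. With 1 sample left out it ranged from -0.74 to -0.58 (adjusted p = 0.0237 to 0.0805) and did not pass without psak 1, 2, 3 or 4 or WT 1, 5 or 6. The cause was not tested.

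The 444 calls over all probes became 283 with median centring, 154 with the random block and 0 with pair means, and 947 without psak samples 5 and 6. They became 202 without samples 1 and 2, 91 without 3 and 4, and 775 without 5 and 6 of both genotypes, and 327 to 583 without 1 sample. As deposited, all probes shifted by a median of -0.11, with 146 higher and 275 lower, against 243 and 201 after quantile normalization. As deposited, PSAN stood at 1.21 and AT1G22700 at -0.81. With 75th percentile centring the shift was 0.12 and the split 237 and 130. The 636 calls of a difference between number pairs became 1338 as deposited and 1012 with median centring.

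The ratio of PSAN to AT1G22700 kept its direction in all 20 alternatives and its side of the threshold in 19, at 1.80 to 2.18 with 1 sample left out. The genotypes did not overlap in this ratio, which the ranges of the 2 genes fix. Leaving out samples therefore had to give the smallest possible p, and those settings do not test the call. Pair means kept 2.02, with p = 0.1 in the exact test, the smallest possible. They left 0 of 8 ratios past the threshold for PSAN (6 before) and 0 for AT1G22700 (4 before), which their smallest p fixes. With the sample number as a replicate block, PSAN stood at 1.43 (limma adjusted p = 0.00364) and AT1G22700 at -0.66 (0.0233), and 433 probes were called. In the exact test of that setting 6 ratios of PSAN and 0 of AT1G22700 passed. The 4 of AT1G22700 that passed before stood at the smallest p of that test. The 6 of PSAN stood at the same p, so the counts differ only through the number of ratios at it. The numbers were not taken to pair the samples: same-numbered samples' deviations correlated at 0.0798 to 0.239, not all over 0.1. Of the 12 samples, 11 correlated best with their own number, a hint of pairing from the data; WT 1 was nearer to psak 5.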
